A study of Mus musculus with 12 samples.

Results

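Besides the SLC6 family, to which the targeted gene Slc6a20a belongs, several solute carrier (SLC) families move amino acids across cell membranes. The genes described here are the protein-coding genes of the SLC1, SLC3, SLC7, SLC36, SLC38 and SLC43 families, picked by symbol alone, without the astrocytic glutamate carriers Slc1a2 and Slc1a3. In all, 34 of the 19775 genes of the table met this description, of which 4 belonged to SLC1, 2 to SLC3, 11 to SLC7, 3 to SLC36, 11 to SLC38 and 3 to SLC43. The annotation holds 6 further genes with such symbols, Slc1a7, Slc7a9, Slc7a12, Slc7a13, Slc7a15 and Slc36a3, which were not analysed here. The question was whether any of the 34 carriers is more abundant where Slc6a20a is lost.

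RNA-seq was done on whole brains of male C57BL/6N mice at about postnatal day 120. The groups were 4 wild-type mice (WT), 4 Slc6a20a+/– mice (HT) that lack exon 3 on 1 allele, and 4 Slc6a20a–/– mice (HM) that lack it on both. All came from crosses of heterozygous parents, and the sources used here name no tissue to which the deletion was limited. Values are normalized counts, reads per gene divided by the size factor of the mouse, and a whole brain pools all of its cell types, so that fewer cells of a type and less RNA per cell cannot be told apart.

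The product of Slc6a20a, SIT1, carries proline and glycine into cells together with sodium and chloride. Several of the 34 carriers accept the same amino acids by other means. Some SLC36 proteins move proline, glycine and alanine with protons, and some SLC38 proteins take up small neutral amino acids with sodium. The SLC7 proteins exchange amino acids or let cationic ones pass. Many SLC7 proteins reach the membrane only when bound to a heavy chain, Slc3a2 or Slc3a1. Cells short of amino acids make more of the transcription factor ATF4, which binds C/EBP-ATF response elements in promoters, among them those of carrier genes such as Slc7a11.

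This element, searched for as TGATGNAA on both strands, is a sequence through which carrier genes can respond to amino acid shortage. RefSeq promoter windows from 250 bases before to 50 bases after the start (GRCm38.p6) were found for 25 of the 34 carriers. A match lay in the windows of 3 of them (12%), Slc7a11, Slc1a4 and Slc7a7, and in those of 4.51% of the 27025 genes with a window. The matches are in capitals in the stretches that follow, each on the minus strand and read 5′ to 3′ as the gene is. The Slc7a11 stretch lies at chr3:50443644-50443703, the Slc7a7 stretch at chr14:54418050-54418109 and the Slc1a4 stretch at chr11:20332709-20332733. Slc7a1, the carrier with the smallest p against WT in both mutants, had no match in its window. Its last 60 bases before the start, chr5:148399905-148399964, are shown as well.
Slc7a11: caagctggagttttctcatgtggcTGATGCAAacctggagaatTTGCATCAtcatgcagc
Slc7a7: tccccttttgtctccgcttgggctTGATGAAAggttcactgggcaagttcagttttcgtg
Slc1a4: cagcgtgcctcctgcgTTGCATCAt
Slc7a1: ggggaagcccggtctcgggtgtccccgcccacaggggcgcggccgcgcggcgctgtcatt
The Slc7a11 stretch holds 2 matches in opposite orientation and the Slc7a7 stretch 1 of the 2 of that gene, while the Slc7a1 stretch holds none. A match describes these letters, not a bound site, and the lack of one covers only the window searched, not the rest of the gene.

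The targeted gene followed the labels. Slc6a20a had 704, 584, 678 and 750.5 normalized counts in the WT mice, 332, 366, 372 and 310.3 in the HT mice and 69.0, 55.6, 76.5 and 57.1 in the HM mice. No 2 genotypes overlapped, and the log2 fold change was -0.97 in HT (limma, BH-adjusted p = 9.38e-04) and -3.38 in HM (limma, BH-adjusted p = 1.75e-08). The normalized counts summed to between 33285000 and 33748600 per mouse, which after normalization does not give the depth. Correlations between libraries lay between 0.987 and 0.990. Markers of neurons, astrocytes and oligodendrocytes were at high level in every mouse, and no marker in the table was at 0 in any mouse. Summed erythrocyte markers ranged from 5904 (HM replicate 3) to 29031 (HM replicate 1) normalized counts. In HM against WT, markers with an unadjusted p under 0.05 numbered 1 of 8 for neurons, 0 of 10 for astrocytes, 0 of 9 for oligodendrocytes, 0 of 10 for meninges and 1 of 8 for cerebellum. Choroid plexus had 3 of 12 and microglia 2 of 9, all lower. Olfactory bulb had 6 of 7, endothelium 2 of 12 and erythrocytes 1 of 6, all higher. Of all genes 3.93% were higher and 3.05% lower by that measure. The part of these cells in the HM values of the carriers was not tested.

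Most of the 34 carriers were well expressed in WT brain. Compared per kb of transcript, averaged over the 12 mice, the levels ran from 1729 normalized counts for Slc3a2 to 2.31 for Slc3a1, both heavy chains. After Slc3a2 came the lysosomal proline and glycine carrier Slc36a1 (1590.3 normalized counts per kb) and the neuronal glutamine carrier Slc38a1 (1511 normalized counts per kb). Slc38a2, an alanine and proline carrier that amino acid shortage is known to induce, followed at 1263 normalized counts per kb. Next in order were Slc7a4, a member of the cationic branch with no settled substrate, at 1111, and the neuronal glutamate and cysteine carrier Slc1a1 at 1064 normalized counts per kb. By the same measure, Slc6a20a in WT mice stood at 205 normalized counts per kb, near Slc7a1, Slc7a2 and Slc7a11.

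**Figure D1:**
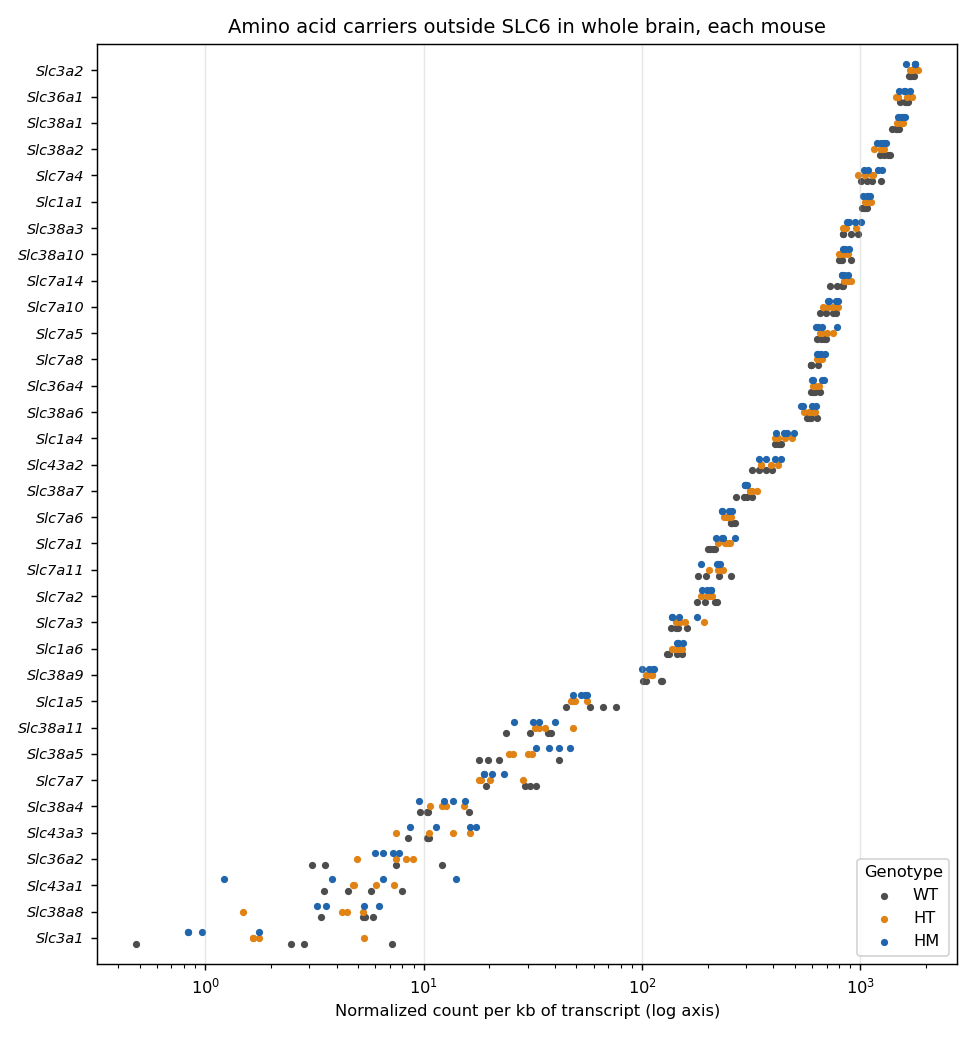
Level of each of the 34 carriers in each mouse, as normalized counts per kb of transcript on a log axis, with genes ordered by their mean and 1 point per mouse in grey (WT), orange (HT) or blue (HM). The 3 colours lie together for most genes, from Slc3a2 at the top to Slc3a1 at the bottom, while the points of the 9 genes with a mean under 100 normalized counts are spread widely.

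How precisely a carrier was measured followed its level. The 25 carriers whose mean reached 100 normalized counts varied among WT mice by a coefficient of variation of 1.73% to 21.3% (median 5.74%). The other 9 (Slc3a1, Slc7a7, Slc36a2, Slc38a4, Slc38a5, Slc38a8, Slc38a11, Slc43a1 and Slc43a3) varied by 9.93% to 86.8% (median 25.96%). Slc3a1, the partner of a renal carrier, averaged under the minimum of 10 normalized counts and was not tested, with values of 5.62, 6.41, 1.097 and 16.2 in WT, 3.77, 12.1, 4.01 and 3.75 in HT and 1.90, 1.89, 3.99 and 2.20 in HM. The 33 others were tested in every comparison, with limma on log2(normalized count + 1) over all genes and Benjamini-Hochberg (BH) adjustment.

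In the HM mice, 0 of the 33 carriers passed an adjusted p of 0.05 against WT, where 2 of the 18004 genes (0.0111%) did. In both mutants limma thus called fewer genes of any kind than the authors report with DESeq2 for the same mice. At an unadjusted p under 0.05, 4 carriers were on the higher side (Slc7a1, Slc38a5, Slc7a8 and Slc38a1) and 1 on the lower side (Slc7a7). These are 12.1% and 3.03% of the carriers tested, beside 3.93% and 3.05% of all genes. The log2 fold change was above 0 for 23 of 33, beside 49.8% of all genes, with a median of 0.03 for the carriers and -0.00029 for all genes. Without WT replicate 1, 19 of 33 were above 0 (57.6%), and without HM replicate 2 the median was 0.065. The smallest adjusted p among them was 0.65, that of Slc7a1.

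The data set a limit on how much more abundant a carrier can have been. Each 95% interval is that of 1 gene, with no correction for their number. In HM mice its upper end lay below 1.2-fold of WT for 24 of the 33 carriers, below 1.5-fold for 28 and below 2-fold for 30. The 9 carriers whose interval reached 1.2-fold were Slc7a1, Slc43a2 and 7 scarce ones, Slc36a2, Slc38a4, Slc38a5, Slc38a8, Slc38a11, Slc43a1 and Slc43a3. Intervals within 1.2-fold of WT in both directions were found for 22 carriers in HM and also for 22 in HT mice.

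**Figure D2:**
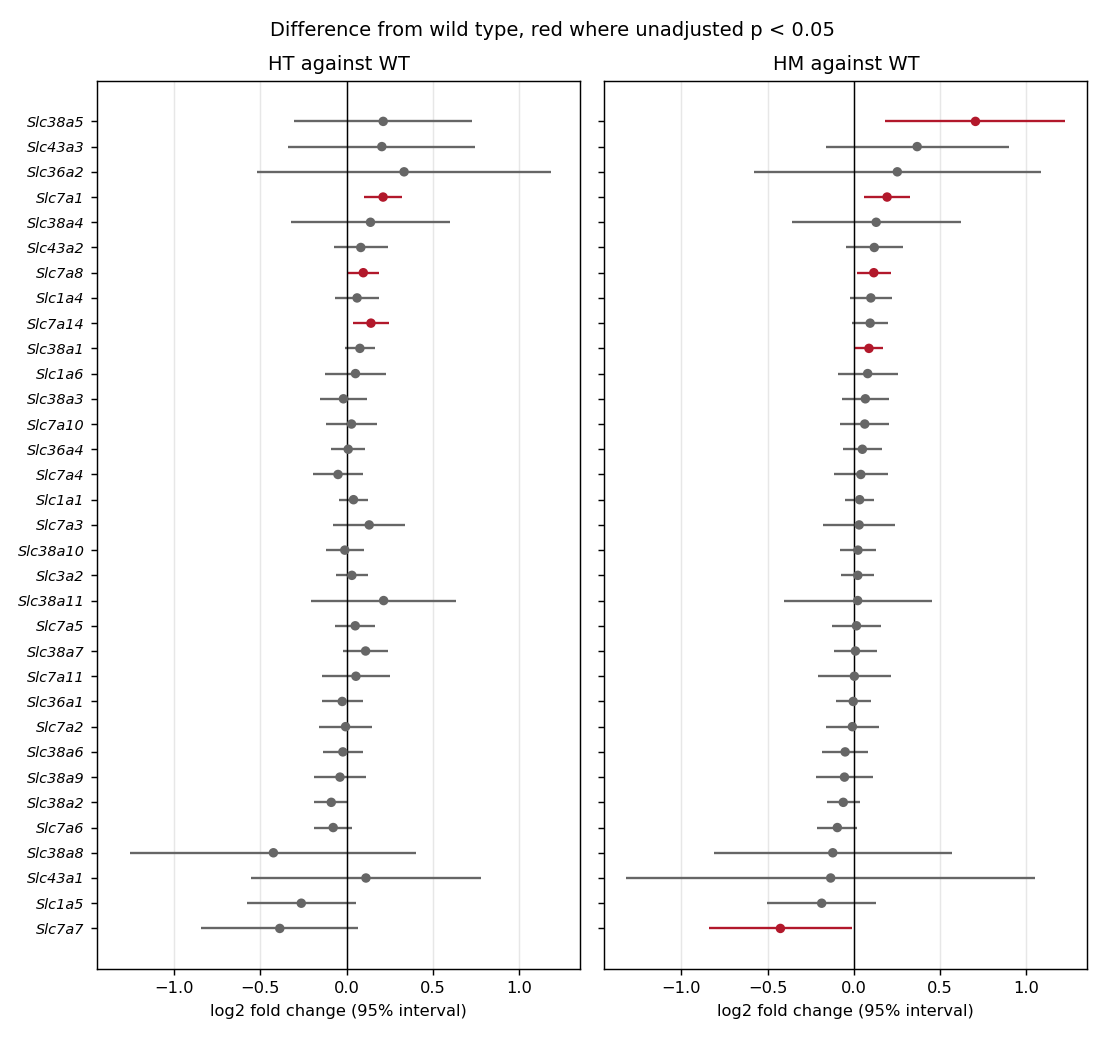
Log2 fold change of each of the 33 tested carriers against WT with its 95% interval, for HT mice on the left and HM mice on the right, and in red where the unadjusted limma p is under 0.05. The abundant carriers have narrow intervals around 0, and the point farthest from 0 is Slc38a5 in HM mice at 0.71.

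In the HT mice, which keep 1 intact allele, 0 of 33 carriers passed the adjusted threshold (1 of the 18004 genes, 0.00555%, did). Slc7a1, Slc7a14 and Slc7a8 had an unadjusted p under 0.05 on the higher side, or 9.09% of the carriers against 3.16% of all genes. No carrier did so on the lower side, where the share of all genes was 3.26%. The log2 fold changes ran from -0.42 (Slc38a8) to 0.33 (Slc36a2), with a median of 0.05, and 21 of 33 were above 0 against 50% of all genes. Without WT replicate 1 the median was 0.022 and 19 of 33 were above 0 (57.6%), and without HT replicate 4 the median was 0.029. HT and HM mice were set against the same 4 WT mice, so the 2 comparisons are not independent.

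Some markers of other cells had an unadjusted p under 0.05 in HT against WT, and 0 passed the adjusted threshold. Of all genes 3.16% were higher and 3.26% lower by the unadjusted measure. Of the 5 erythrocyte markers tested, 5 were lower in HT at an unadjusted p under 0.05 (median log2 fold change -0.83), with sums of 6499 to 8721 normalized counts in HT and 7783 to 21987 in WT. By the same measure 1 of 12 endothelial markers was higher and 2 were lower. Among astrocyte markers 1 of 10 was higher and among neuronal markers 1 of 8, while 1 of 10 for meninges and 1 of 6 for olfactory bulb were lower. Microglia, oligodendrocytes, choroid plexus and cerebellum had 0. The part of these cells in the HT values of Slc7a1, Slc7a14 and Slc7a8 was not tested.

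Slc7a1 encodes CAT-1, which lets arginine, lysine and ornithine into cells and does not carry proline or glycine. It lies on the minus strand of chromosome 5 (chr5:148327410-148399904, GRCm38). The WT mice had 1436, 1524, 1552 and 1468 normalized counts, the HT mice 1813, 1723, 1604 and 1786, and the HM mice 1675, 1695, 1917 and 1565. Every mutant mouse was above every WT mouse, and the mutants overlapped each other. The mean was 1495 ± 52.8 in WT, 1731 ± 93.1 in HT and 1713 ± 148 in HM (SD, 4 mice each). Relative to WT the difference was 15.7% in HT (95% interval 7.08% to 25.1%; limma, BH-adjusted p = 0.726). In HM it was 14.3% (4.36% to 25.2%; limma, BH-adjusted p = 0.65). By unadjusted p, Slc7a1 ranked 28 of 18004 genes in HT and 203 of 18004 in HM. Between the mutants the log2 fold change was -0.02 (interval -0.15 to 0.12).

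Separation of all mutant from all WT mice was counted over all genes too. In HT mice, 2 carriers (Slc7a1 and Slc7a14) had all 4 mice above all WT mice, as did 1.82% of all genes. In HM mice only Slc7a1 did, against 2.41% of all genes. No carrier had all mutant mice below all WT mice, which 1.91% of genes showed in HT and 1.81% in HM.

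Slc38a5 encodes SNAT5, which carries glutamine, histidine, serine and glycine and is known from brain endothelium. It is a scarce transcript here, at 31.0 normalized counts per kb, on the plus strand of the X chromosome (chrX:8271133-8280179, GRCm38). The WT mice had 77.5, 33.6, 36.9 and 41.4 normalized counts, the HT mice 46.0, 58.6, 56.1 and 48.0 and the HM mice 78.1, 87.4, 70.0 and 61.2. WT replicate 1 reached the HM range while the other 3 WT mice lay below every HM mouse, and every HM mouse was above every HT mouse. The log2 fold change of HM against WT was 0.71 (SE 0.24; limma, BH-adjusted p = 0.655). Without WT replicate 1 it was 0.97 (limma, BH-adjusted p = 0.368). Against HT it was 0.49 (SE 0.16; limma, BH-adjusted p = 1). For HT against WT it was 0.21, with an interval of -0.31 to 0.73.

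Slc38a5 was set beside markers of blood, olfactory bulb and endothelium. The 3 mice with the highest Slc38a5, HM replicates 2 and 1 and WT replicate 1, also had the highest summed erythrocyte markers, at 20167, 29031 and 21987 normalized counts. HM replicate 3, with 70.0 for Slc38a5, had the lowest erythrocyte sum of all, 5904. Of 6 erythrocyte markers, 1 was higher at an unadjusted p under 0.05 in HM than in WT. Summed olfactory bulb markers were 954 to 1686 in HM, 597 to 764 in HT and 629 to 1017 in WT mice, and 6 of 7 were higher in HM than in WT at an unadjusted p under 0.05. HM replicate 2, the highest in Slc38a5, had the lowest of the 4 HM sums. Summed endothelial markers overlapped, at 14325 to 15545 in WT and 14112 to 16300 in HM, with 2 of 12 higher at an unadjusted p under 0.05. HM replicate 1, second highest in Slc38a5, had the lowest endothelial sum of the 12 mice. In HM against HT, 5 of 6 erythrocyte, 7 of 7 olfactory bulb and 0 of 12 endothelial markers were higher by that measure. The part of blood, olfactory bulb or endothelium in the Slc38a5 values was not tested.

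The animal numbers in the table begin with 271, 274, 276 or 278, and their meaning is not given in the sources used here. Among mice whose number starts with 274, Slc38a5 was 77.5 in the WT mouse and 70.0 in the HM mouse. Among those starting with 276 it was 33.6 in the WT mouse, 52.3 as the mean of 2 HT mice and 61.2 in the HM mouse. The means of those starting with 278 were 39.2 (2 WT mice) and 52.1 (2 HT mice). The 2 starting with 271 were both HM, with a mean of 82.7. With the number start as a block, genotypes are compared only among mice that share a start. HM against WT then rested on WT replicates 1 and 2 and HM replicates 3 and 4. HM against HT rested on HM replicate 4 and HT replicates 1 and 2. The log2 fold change of Slc38a5 was 0.35 in HM against WT (limma, BH-adjusted p = 0.763), 0.23 in HM against HT and 0.22 per allele. Its unadjusted p was over 0.05 in HM against WT and per allele, with fewer mice informing the difference. Slc7a1 was 1436 in the WT and 1917 in the HM mouse starting with 274, and 1524 in the WT, 1768 on average in the 2 HT and 1565 in the HM mice starting with 276. With 278, the means were 1510.2 in 2 WT and 1695 in 2 HT mice. For Slc7a1 the same block gave 0.23 in HM (limma, BH-adjusted p = 0.604) and 0.18 in HT (limma, BH-adjusted p = 0.682).

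Slc7a8 and Slc38a1 are abundant, and their differences were small. Slc7a8 encodes LAT2, a light chain of Slc3a2 that exchanges neutral amino acids, glycine included. It had 2420.0, 2415, 2605 and 2438 normalized counts in the WT mice, 2615, 2584, 2628 and 2731 in the HT mice and 2610.3, 2576, 2821 and 2700.4 in the HM mice. WT replicate 3 lay within the range of both mutants, and the other WT mice lay below them. The difference from WT was 8.38% in HM (1.29% to 16.0%; limma, BH-adjusted p = 0.67) and 6.89% in HT (limma, BH-adjusted p = 0.77). With the animal number block the log2 difference of Slc7a8 in HM was 0.19 in place of 0.12 (limma, BH-adjusted p = 0.573), and 0.09 in place of 0.06 per allele. Slc38a1, or SNAT1, which supplies neurons with glutamine, had 7052, 7488, 7379 and 7606 normalized counts in the WT mice, 7912, 7429, 7818 and 7972 in the HT mice and 8115, 7964, 7528 and 7774 in the HM mice. Genotypes overlapped, and HM exceeded WT by 6.28% (0.348% to 12.6%; limma, BH-adjusted p = 0.697).

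Slc7a14, a lysosomal membrane protein of neurons and retina, had an unadjusted p under 0.05 in HT. Its values were 4339.5, 4909.5, 4967 and 4662 normalized counts in the WT mice, 5047, 5069, 5435 and 5239 in the HT mice and 5038, 5267, 4919.6 and 4917 in the HM mice. All HT mice were above all WT mice, by 10.2% (2.56% to 18.5%; limma, BH-adjusted p = 0.768), while HM mice overlapped WT, with a difference of 6.80% (-0.530% to 14.7%). On the log2 scale, HM differed from HT by -0.05 (interval -0.13 to 0.03).

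On the lower side stood Slc7a7, which encodes the light chain y+LAT1, a carrier of cationic amino acids in macrophages and epithelia. Its values were 41.2, 69.8, 65.6 and 62.3 normalized counts in the WT mice, 38.3, 43.01, 60.9 and 39.1 in the HT mice and 40.3, 49.7, 40.2 and 43.9 in the HM mice. WT replicate 1 lay among the mutants and the other 3 WT mice above all HM mice, and the log2 difference was -0.43 (SE 0.19; limma, BH-adjusted p = 0.701). Summed microglial markers ranged from 9360 to 10920 in WT and from 8889 to 10107 in HM mice, 2 of 9 being lower at an unadjusted p under 0.05. The part of microglia in the Slc7a7 values was not tested. Its exons overlap those of Oxa1l on the other strand over 232 bp (6.998%), and libraries of this kit do not tell strands apart.

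When each mouse was left out in turn, Slc7a1 kept an unadjusted p under 0.05 in both HT and HM, Slc38a5 did in HM and Slc7a14 in HT. Slc7a8 lost it in HM without HM replicate 3 or 4 or WT replicate 2 or 4, its log2 differences ranging from 0.09 to 0.14 over all omissions. Slc38a1 lost it in HM without HM replicate 1, 2 or 4 or WT replicate 1 or 3 (0.07 to 0.11). Slc7a7 lost it without HM replicate 1, 3 or 4 or WT replicate 2, 3 or 4 (-0.59 to -0.34), and Slc7a8 in HT lost it in 6 of 8 omissions (0.08 to 0.12). Slc38a5, Slc38a1 and Slc7a7 in HM and Slc7a8 in HT lost it with the animal number block, in which fewer mice inform the difference. Slc38a1 in HM and Slc7a8 in HT also lost it with quantile normalization and with a constant variance prior.

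**Figure D3:**
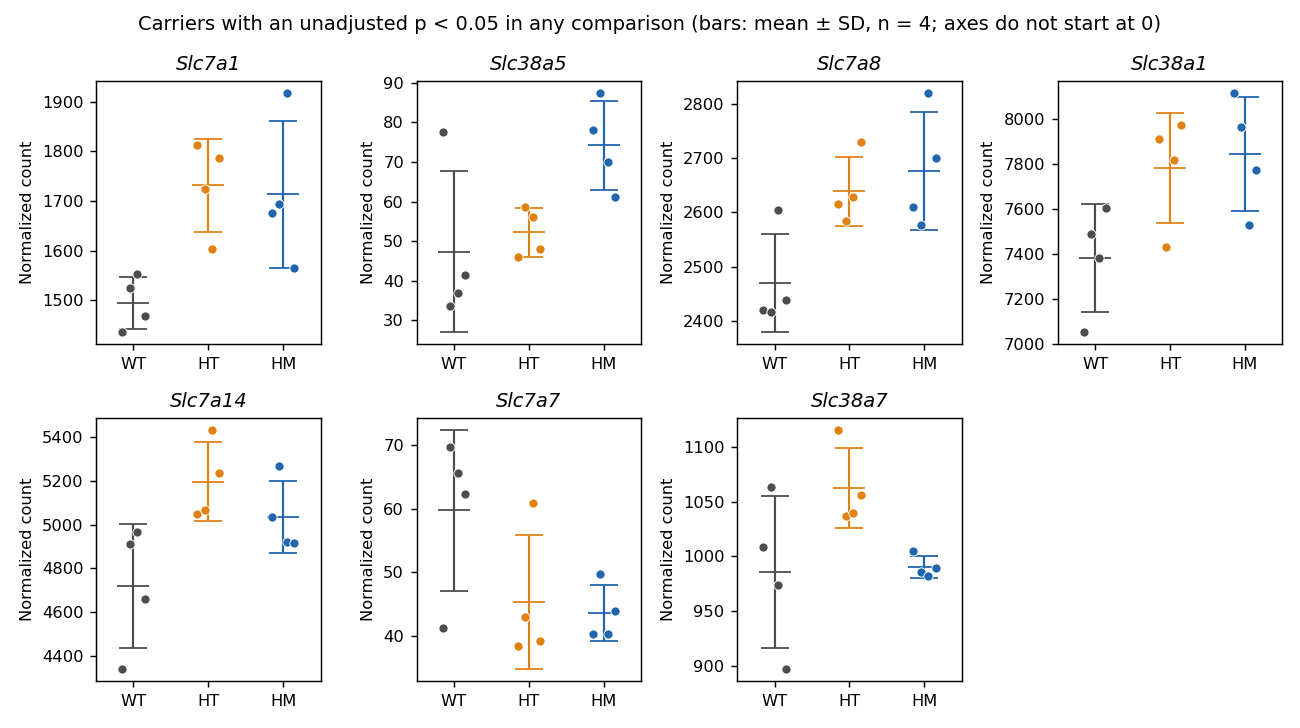
Normalized counts in each mouse for the 7 carriers with an unadjusted p under 0.05 in any comparison, with 4 points per genotype and bars for mean ± SD, on axes that do not start at 0. In the Slc7a1 panel all mutant points lie above the WT points, and in the Slc38a5 panel WT replicate 1, at 77.5, lies among the HM points.

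When the mutants were compared with each other, 0 of 33 carriers passed the adjusted threshold, beside 0.00556% of the 17986 genes. Only Slc38a5 was higher in HM than in HT at an unadjusted p under 0.05 (3.03% of carriers, 2.11% of all genes), and only Slc38a7 was lower (3.03%, 1.62% of all genes). Both also separated the 4 HM from the 4 HT mice, as 1.24% of all genes did upward and 1.14% downward. Slc38a7, or SNAT7, exports glutamine from lysosomes. It had 1116, 1037, 1039.8 and 1056 normalized counts in HT, 1005, 986, 982 and 989 in HM and 1009, 1063, 974 and 897 in WT mice, so that WT mice overlapped both mutants. On the log2 scale its difference between HM and HT was -0.10 (limma, BH-adjusted p = 1), and without any 1 HM mouse, or without HT replicate 1 or 4, its unadjusted p was over 0.05 (differences of -0.11 to -0.08). Of the 33 carriers 16 were above 0 (49.5% of all genes), and with the animal number block 22 were. In that block HM replicate 4 was the only HM mouse that shared a number start with HT mice.

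The number of mutant alleles, 0, 1 or 2, was also fitted as a trend over all 12 mice. No carrier (0 of 33) passed the adjusted threshold, beside 0.0222% of the 18006 genes. Slc7a1, Slc7a8, Slc38a1 and Slc38a5 were on the higher side at an unadjusted p under 0.05 (12.1%, against 4.22% of all genes) and Slc7a7 on the lower side (3.03%, against 3.44%). The median change per allele was 0.016, or 0.028 without HM replicate 2 and 0.010 without WT replicate 1. Slc38a5 had a log2 change of 0.35 per allele (limma, BH-adjusted p = 0.538), the smallest adjusted p of any carrier in the 4 comparisons. Without WT replicate 1 its change per allele was 0.48 (limma, BH-adjusted p = 0.0876). Slc7a1 had 0.10 per allele (limma, BH-adjusted p = 0.543) and Slc7a8 0.06 (limma, BH-adjusted p = 0.543). The trend gave 0.04 per allele for Slc38a1 (limma, BH-adjusted p = 0.611) and -0.21 for Slc7a7 (limma, BH-adjusted p = 0.64).

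The carriers that share a substrate with SIT1 bear most directly on the question. A list of 8 carriers known to accept proline or glycine was used, and all 8 were tested in every comparison. Of them, 0 passed the adjusted threshold in HM mice, 2 were higher at an unadjusted p under 0.05 (Slc38a5 and Slc7a8, described above) and 0 were lower. Of all genes 3.93% were higher and 3.05% lower by that measure. The median log2 fold change of the 8 was 0.09 in HM and 0.06 in HT mice, beside -0.00029 in HM over all genes.

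The 3 SLC36 genes on this list gave differences near 0 or imprecise ones. Slc36a1, or PAT1, of lysosomal and plasma membranes, had 3114, 3190.3, 2951 and 3225 normalized counts in the WT mice, 2849.6, 2905, 3175 and 3348 in the HT mice and 3126, 3291, 2935 and 3103 in the HM mice. Its genotypes overlapped, and the HM difference of -0.223% had an interval of -6.92% to 6.95%. Slc36a4, or PAT4, a carrier of proline and tryptophan, had 2508, 2720.1, 2559.9 and 2463 in WT, 2687, 2543, 2571 and 2508 in HT and 2525, 2495, 2768 and 2831 in HM, with an HM difference of 3.50% (-4.35% to 12.0%). Slc36a2, or PAT2, of higher affinity, was near the detection limit, with 7.51, 8.60, 29.3 and 18.2 in WT, 18.2, 20.1, 21.7 and 12.0 in HT and 15.8, 17.6, 18.6 and 14.6 in HM. At this level the interval of the HM difference of Slc36a2 was -33.2% to 112%, so that a 2-fold difference was not excluded. With the animal number block its log2 difference between HM and WT was 0.95 in place of 0.25, with an unadjusted p under 0.05 (limma, BH-adjusted p = 0.628).

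Of the sodium-coupled SLC38 carriers on this list, Slc38a2 (SNAT2) was the most abundant, with 5749, 5975, 6246 and 6394 normalized counts in the WT mice, 5363, 5804, 5764 and 5965 in the HT mice and 6094, 5948, 5528 and 5780.5 in the HM mice. HM overlapped WT, with a difference of -4.14% (-10.3% to 2.47%). Slc38a4, or SNAT4, a carrier best known from placenta and liver, had 28.5, 47.6, 30.8 and 30.4 in WT, 35.8, 37.4, 45.0 and 31.4 in HT and 36.3, 27.9, 45.4 and 40.0 in HM, and an HM interval of -22.1% to 53.7%. Slc38a1, Slc38a2 and Slc38a4 lie side by side on chromosome 15 and are all on the minus strand. Slc7a10, or Asc-1, through which neurons exchange glycine and D-serine, had 896, 841, 966 and 999.9 in WT, 869, 966, 1019 and 919.6 in HT and 1021, 999, 921 and 925 in HM, an HM difference of 4.51% (-5.32% to 15.4%). Exons of Slc7a10 overlap those of Lrp3 on the other strand over 377 bp (17.9%).

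Set side by side per kb of transcript, Slc6a20a averaged 205 normalized counts in the WT mice, 104 in the HT mice and 19.5 in the HM mice, a difference of -185.6 between HM and WT. The 8 carriers summed to 4891 normalized counts per kb in WT, 4850 in HT and 4954 in HM. The sum in HM thus exceeded that in WT by 62.6 normalized counts per kb, an amount given as a description of RNA level, with no test.

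**Figure D4:**
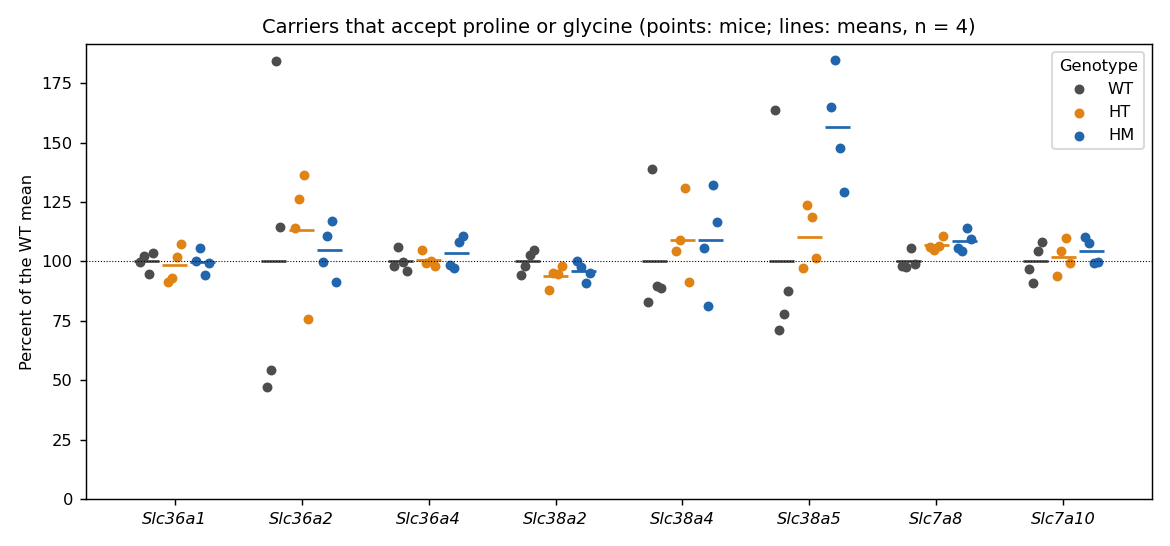
The 8 carriers that accept proline or glycine in each mouse, as percent of the WT mean of the same gene, with 1 point per mouse and a line for each genotype's mean (axis from 0). The 5 abundant carriers stay near 100% in all 3 genotypes, and the points of Slc36a2, Slc38a4 and Slc38a5 are spread widely.

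Slc3a2, or 4F2hc, the heavy chain that most SLC7 exchangers need, had 3111, 3042, 3214 and 3058 normalized counts in the WT mice, 3352, 3058, 3106 and 3174 in the HT mice and 2940.3, 3231, 3239.9 and 3223 in the HM mice. Genotypes overlapped, and the HM difference was 1.63% (-4.83% to 8.52%). Of its 6 light chains tested, 1 was higher in HM at an unadjusted p under 0.05 (Slc7a8) and 1 lower (Slc7a7), with a median log2 fold change of 0.01. Of all genes 3.93% were higher and 3.05% lower by that measure. Slc7a5 (LAT1), which brings large neutral amino acids into the brain, differed by 1.09% in HM (-8.48% to 11.7%). Slc7a11 (xCT), the cystine and glutamate exchanger with the promoter shown above, differed by 0.228% (-13.5% to 16.2%). Slc7a6 (y+LAT2) had a log2 fold change of -0.10 (limma, BH-adjusted p = 0.751).

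Among the other SLC7 genes, Slc7a2 and Slc7a3, further cationic carriers, and Slc7a4 had HM log2 fold changes of -0.01, 0.03 and 0.04. In SLC1, the values were 0.03 for Slc1a1, 0.10 for the serine and alanine carrier Slc1a4, -0.19 for the glutamine exchanger Slc1a5 and 0.08 for Slc1a6, the glutamate carrier of Purkinje cells. The SLC43 genes gave -0.13 for Slc43a1, 0.12 for Slc43a2 and 0.37 for Slc43a3. Slc43a1 was scarce, with means of 13.8 normalized counts in WT and 16.3 in HM, so its direction depended on the log scale. The remaining SLC38 genes, Slc38a3 (a glutamine carrier of astrocytes), Slc38a6, Slc38a8, Slc38a9 (the lysosomal arginine sensor), Slc38a10 and Slc38a11, lay between -0.12 (Slc38a8) and 0.07 (Slc38a3). None of these 16 genes had an unadjusted p under 0.05 in any comparison. Exons of Slc1a1, Slc7a4 and Slc43a2 overlap genes of the other strand, 4430402I18Rik over 2631 bp, P2rx6 over 554 bp and Gm45606 over 922 bp, and their reads cannot be told apart. Those of Slc3a1 overlap Prepl over 601 bp, and those of Slc7a2, Slc38a9 and Slc38a10 overlap non-coding genes over 182 to 635 bp.

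Carriers of the blood-brain barrier (Slc7a1, Slc7a5, Slc3a2, Slc38a3 and Slc38a5) had 0 of 5 past the adjusted threshold in HM mice. The 2 with an unadjusted p under 0.05 were Slc7a1 and Slc38a5, both higher, as were 3.93% of all genes. The median log2 fold change of the 5 was 0.07, beside -0.00029 over all genes, and the list was chosen with earlier results of these data known. Slc38a3 had 2290.2, 2092, 2093 and 2463 normalized counts in WT and 2376, 2229, 2554 and 2199 in HM mice, which overlapped.

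Genes that cells use to respond to amino acid shortage were listed apart from the carriers. Of 30 such genes, ATF4 targets and their regulators, 29 were tested, and 0 passed the adjusted threshold in any comparison. In HM mice, 1 was higher at an unadjusted p under 0.05 and 0 were lower, beside 3.93% and 3.05% of all genes. The median log2 fold change was 0.01. Cebpg, a partner of ATF4, had 1115, 1076, 1121 and 1055 normalized counts in the WT mice, 1188, 1200.3, 1124 and 1155 in the HT mice and 1227, 1221, 1214 and 1192 in the HM mice. Cebpg was picked by its p, and all HM mice were above all WT mice, as in 2.41% of all genes (limma, BH-adjusted p = 0.643). The next gene by p was Cth, the cystathionine-cleaving enzyme of cysteine synthesis, at -0.25 (limma, BH-adjusted p = 0.74).

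The summed level of the list stood apart in single mice. HT replicate 1 and HM replicate 3 had the highest sums, 50264 and 50763 normalized counts, and the other 10 mice lay between 44839 and 46943. Asns, the asparagine synthetase that ATF4 induces, was highest in the same mice, at 2709 and 2681 normalized counts. So were Slc7a1, at 1813 and 1917, Slc7a5, at 2637 and 2749, and Slc1a4, at 1904 and 1928. Other carriers that amino acid shortage can induce did not follow. Slc38a2 was at its lowest in these mice, at 5363 and 5528. Slc7a11 had 1178 and 1320 there, within its WT range of 1053 to 1491. Without HT replicate 1 the log2 fold change of Slc7a1 was 0.19 in HT (limma, BH-adjusted p = 0.926), and without HM replicate 3 it was 0.14 in HM (limma, BH-adjusted p = 0.640).

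The mTORC1 pathway senses amino acids at lysosomes, where several of the carriers sit. All 30 listed genes of it were tested and 0 passed the adjusted threshold in any comparison. In HM mice, 1 was higher at an unadjusted p under 0.05 and 0 were lower, beside 3.93% and 3.05% of all genes. The median log2 fold change was -0.01. The gene was Mlst8, a subunit of mTORC1, with 1329, 1361, 1319.8 and 1284 normalized counts in WT and 1543, 1417, 1364 and 1537 in HM. Mlst8 was picked by its p, and every HM mouse was above every WT mouse, as in 2.41% of all genes (limma, BH-adjusted p = 0.664). Rptor, the subunit that binds the substrates of mTORC1, was next at 0.09 (limma, BH-adjusted p = 0.731).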

How the data were processed

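RNA-seq libraries from whole brains of 12 mice were made with a TruSeq kit and read from both ends for 100 bases. The authors estimated transcript abundance with Salmon 1.1.0 on GRCm38 with GC correction, imported it with tximport and normalized it with DESeq2 1.30.1. The deposited signal is thus a normalized count, for 19775 genes. At most 29.5% of the low values were whole multiples of a read (within 0.05), so count models were not fitted and limma was used in place of the DESeq2 test of the authors. Symbols, positions and lengths came from GENCODE (GRCm38), where 19758 identifiers were found.

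Genotypes were compared with limma 3.58.1 in R 4.3.3, applied to log2(normalized count + 1) with the trend option for the variance. Genes averaging under 10 normalized counts in the mice fitted were left out. P-values were adjusted over all genes (BH, threshold 0.05). Each pair used its 8 mice, and the trend all 12. The test was tested on simulated data. Percent differences and 95% intervals are on the normalized count + 1 scale. Levels per kb used the median transcript length. Tables were made with Python 3.11.15, pandas 2.3.3 and matplotlib 3.10.9.

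Members and gene lists were chosen with earlier results of these data known. Named were carriers with an unadjusted p under 0.05 in any comparison, the proline and glycine carriers, the 3 highest per kb, Slc3a2 and, from the amino acid response and mTORC1 lists, the 2 genes with the smallest p in HM. Asns was chosen after its values were seen, as were Slc7a5, Slc1a4, Slc38a2 and Slc7a11 where single mice are described. Alternatives were a pseudocount of 0.1, no filter, at least 10 in every mouse, quantile normalization, replicate and animal number blocks, a constant prior, 1 fit of 12 mice and leaving out each mouse. Mice were separate animals.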

Additional observations from a re-analysis of the deposited data

Results flagged for a closer look

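The 4 values that follow are given because 1 mouse lay far from the other 3 of its genotype by Dixon's criterion. Slc38a4 had 47.6 normalized counts in WT replicate 2, where the other WT mice had 28.5 to 30.8. Slc3a2 had 2940.3 in HM replicate 1, below the 3223 to 3240 of the other HM mice. Slc43a3 had 21.998 in WT replicate 1, below the 26.8 to 27.4 of the other WT mice. Slc7a8 had 2605 in WT replicate 3, above the 2415 to 2438 of the other WT mice. These are 4 of 99 groups of 4 mice, and the criterion marks about 1 in 20 groups by chance.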

How the results depend on the processing

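Over 71 fits, main and alternative, 0 had a carrier past the adjusted threshold, and the smallest adjusted p (limma, BH) was 0.0876, that of Slc38a5 for the trend without WT replicate 1. Counts of carriers on the lower side at an unadjusted p under 0.05 moved most. For HT against WT the count of 0 became 1 with quantile normalization and 3 with the animal number block, and ranged from 0 to 3 when 1 mouse was left out (3 without WT replicate 1, 1 without HT replicate 3). For HM against WT the count of 1 (Slc7a7) became 0 with the animal number block and ranged from 0 to 2 when 1 mouse was left out, being 2 without WT replicate 1 and 0 without WT replicate 2, 3 or 4 or HM replicate 1 or 4. For HM against HT the count of 1 (Slc38a7) became 0 with at least 10 in every mouse, with the animal number block and in 1 fit of 12 mice, and was 0 to 1 when 1 mouse was left out, being 1 only without HT replicate 2 or 3. For the trend the count of 1 became 0 with the animal number block and 2 with a constant variance prior, and ranged from 0 to 2 when 1 mouse was left out, being 2 without WT replicate 1 and 0 without WT replicate 2, 3 or 4, HT replicate 2 or HM replicate 1 or 4. On the higher side the counts over all alternatives were 2 to 4 in HT mice (3 as reported), 3 to 5 in HM mice and in the trend (4 as reported), and 1 to 2 between the mutants (2 without HT replicate 3). With the animal number block the median was 0.024 in HT mice, 0.09 in HM mice and 0.043 per allele, and Slc36a2 in HM was 0.95 on the log2 scale. In that block HM was set against WT only through WT replicates 1 and 2 and HM replicates 3 and 4. Leaving out 1 mouse turned the HM difference of Slc36a1, which ranged from -0.030 to 0.025 on the log2 scale, and that of Slc36a2, from -0.013 (without WT replicate 1) to 0.60. The cause was not tested.

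Replicate numbers did not pair the mice. Deviations of mice with the same number correlated between -0.066 and 0.087, with 0 of 4 over 0.1 in each comparison, and a mouse correlated best with its own number in 2 of 4 pairs for HT against WT, 1 of 4 for HM against WT and 1 of 4 for HM against HT. With the replicate block, the count on the lower side was 1 for HT against WT and 0 for HM against HT, no carrier passed the adjusted threshold, and Slc38a1 in HM and Slc7a8 in HT had an unadjusted p over 0.05.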
